A study of Homo sapiens with 4 samples.

Results

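NRF2, encoded by NFE2L2, is the transcription factor that switches on antioxidant genes when cells are under oxidative or electrophilic stress. In resting cells KEAP1 holds NRF2 and hands it over for degradation, and BACH1 is a repressor that occupies many of the same antioxidant response elements until haem or oxidants release it. The best known targets include HMOX1 (haem oxygenase-1), NQO1 (a quinone reductase), TXNRD1 (cytosolic thioredoxin reductase) and SRXN1 (sulfiredoxin, which repairs over-oxidised peroxiredoxins). ATF3, the factor mapped here, is a stress-responsive bZIP protein that binds AP-1-like and cAMP response element-like sites, a group of sequences that resembles the antioxidant response element.

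The signal of ATF3 was described at these 7 genes in SW480, an established colorectal cancer cell line. About the libraries, the labels give 2 from cells kept in full medium and 2 from cells kept in cystine-restricted medium, a medium short of the oxidised cysteine dimer from which cells make glutathione. The series' design text gives 24 h of culture. Each library was made by CUT&Tag, in which an antibody to ATF3 directs a transposase to cut and tag nearby chromatin, and no other treatment or genetic change is labelled. The labels do not say whether the 2 libraries of a medium came from separate cultures, so any p-value covers only the spread between these libraries, which may be technical. Peak positions hold no measure of expression, so the cell type could not be checked against marker genes. A control library with no antibody, or with another one, was not used here.

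The members were chosen by position. Peaks of the 4 lists that shared at least 1 bp were merged into 44826 regions on chromosomes 1 to 22 and X, and those overlapping the hg19 span of a gene or the 20 kb on either side were taken. This gave 26 regions at the 7 genes, in windows that add up to 551.1 kb. Distances below are in bp from the 5′ end of the gene span in hg19 and are negative upstream. The height of a peak is the number of tags piled up at its summit divided by the genome background of its library, which is the pileup expected from its number of tags. Pairs of values are given with replicate 1 first and replicate 2 second. The genome background was 1.30 and 1.08 tags for the cystine-restricted pair and 1.11 and 1.32 tags for the full-medium pair. Each medium thus had 1 deeper and 1 shallower library.

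ATF3 peaks were found at each of the 7 genes under cystine restriction, and at 4 of them in full medium. The share of all genes with a peak in each medium was not worked out. The full-medium lists were shorter, at 17447 and 19132 peaks against 33838 and 29607 under cystine restriction. The windows held 19 and 21 peaks under cystine restriction, and 9 and 12 in full medium. Their ratio of 1.90 stands beside 1.73 for all peaks, so the excess at these genes was close to that of the whole lists. HMOX1, KEAP1 and BACH1 had no listed full-medium peak anywhere in their windows, and SRXN1 had none in full-medium replicate 1.

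**Figure D1:**
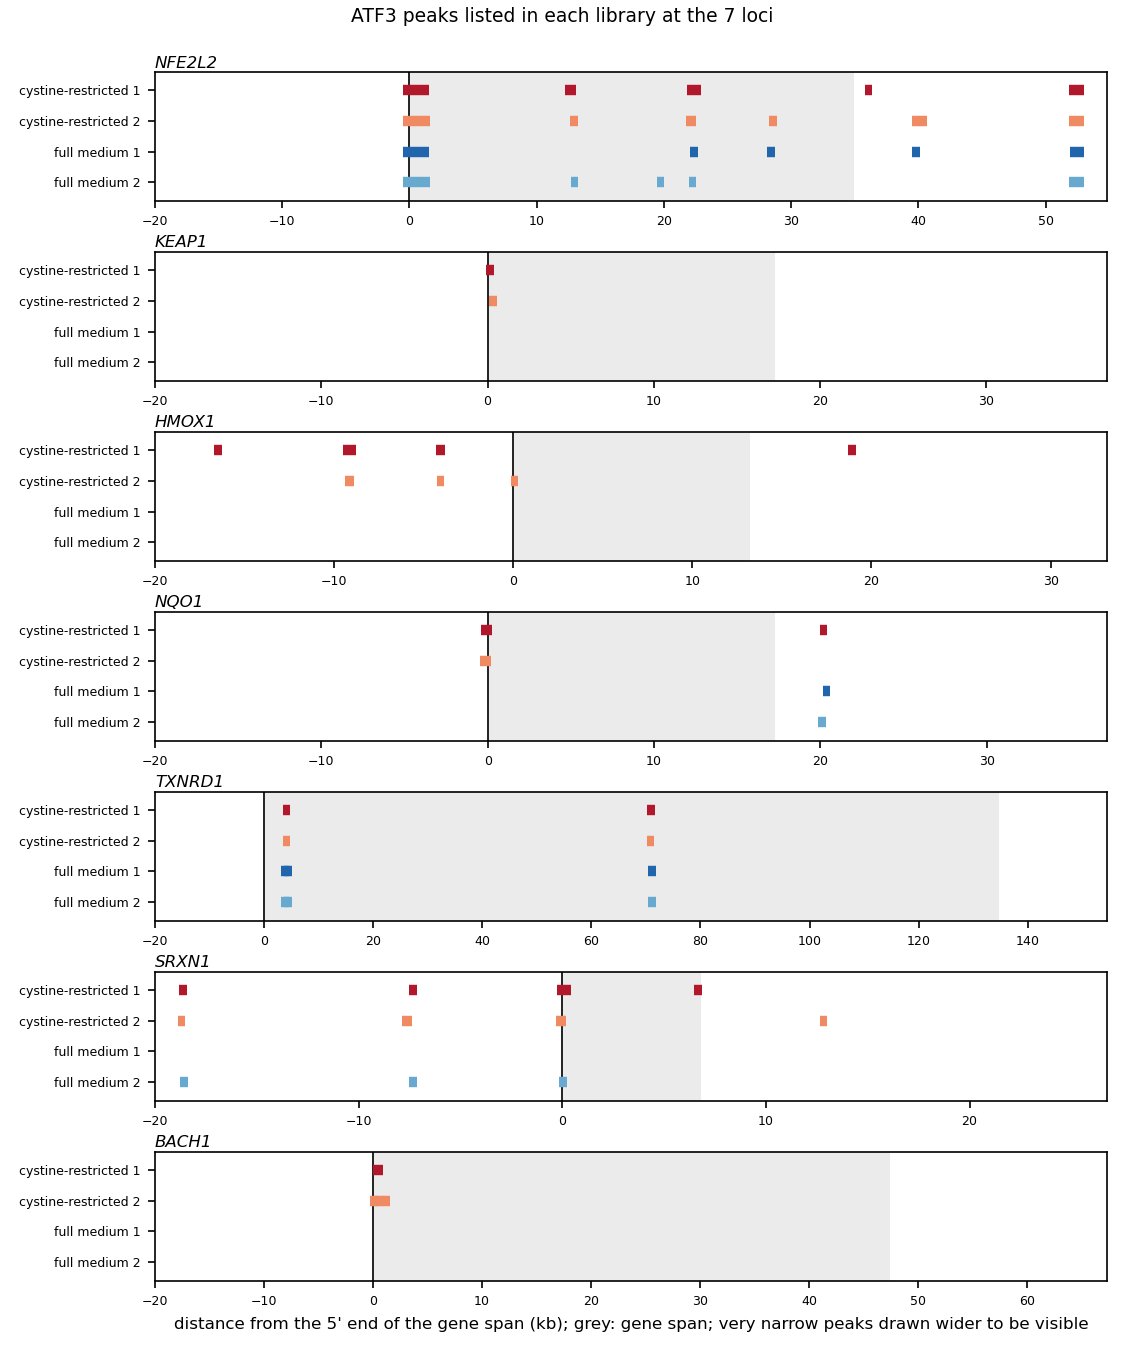
Peaks listed in each library at the 7 genes, against the distance in kb from the 5′ end of each gene span, with the span shaded. The rows of both full-medium libraries are empty at KEAP1, HMOX1 and BACH1, while the peaks of NFE2L2 and TXNRD1 line up across the media.

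Of the 26 regions, 5 had a peak in every library, against 23.0% of all merged regions. A further 5 were gained, meaning listed in each cystine-restricted library and absent from the full-medium lists, against 12.7% of all regions. The 5 gained regions were 2 upstream of HMOX1 and 1 each at the 5′ ends of NQO1, KEAP1 and BACH1. Of the 14 regions found in both cystine-restricted libraries these 5 were gained, against 27.6% of all such regions. None of the 26 was lost, the reverse pattern, which 0.386% of all regions showed, and a count of 0 among 26 allows a share of up to 11.5%. Single libraries accounted for 9 of the 26, 4 in each cystine-restricted replicate and 1 in full-medium replicate 2, against 46.4% of all regions in 1 library. These counts were not tested against the other regions, and the 26 are not independent, since 9 of them lie at NFE2L2 alone. The gained count also depended on the peaks admitted: it was 2 when each list was cut to an equal number of its top peaks, and 7 when only peaks with a −log10 q of 5 or more were kept. The 7 were not the same set enlarged. They left out KEAP1, and took in NFE2L2 at 12211 to 13240 bp and SRXN1 at -292 to 433 and -7868 to -7167 bp. Leaving out a library asks for a peak in fewer libraries. The gained count was then 10 without cystine-restricted replicate 1, 9 without cystine-restricted replicate 2, 5 without full-medium replicate 1 and 9 without full-medium replicate 2. Without full-medium replicate 1 the regions in every library numbered 9, and 1 region was lost without it or without cystine-restricted replicate 1.

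A region near the 5′ end of the gene span was listed in at least 1 library at 6 of the 7 genes. TXNRD1 was the exception, with its nearest region starting 3641 bp into the span, and its second RefSeq start is treated below. In full medium, such a region was listed only at NFE2L2, in each library, and at SRXN1, in replicate 2. The HMOX1 region was listed in cystine-restricted replicate 2 alone. How many of all genes have a region at the 5′ end was not worked out. For NFE2L2, HMOX1, NQO1, SRXN1 and BACH1 the nearest region covered the 5′ end of the span, and for KEAP1 it began 71 bp inside it. Promoter sequences were therefore read from RefSeq, whose table held 11 start sites for 6 of the 7 genes in GRCh38.p14. The 250 bases before each start were searched on both strands for TGACNNNGC (the antioxidant response element core), TGANTCA (AP-1), TGACGTCA (the cAMP response element), and TGACGCAA and TGATGCAA (C/EBP-ATF elements). These motifs can overlap each other. TGACNNNGC was found in 3 of the 11 windows, those of the second KEAP1 start and both TXNRD1 starts. It was in 10.9% of all 35116 RefSeq windows of the same length. TGANTCA was found in 1 of 11 and 6.57%, TGACGCAA in 1 of 11 and 0.478%, and the other motifs in 0 of 11 and 1.65% (TGACGTCA) or 0.772% (TGATGCAA) of all windows. The 11 windows are starts of 6 genes, so they are not independent. Their GC content ran from 32.4% to 80.4%, beside a median of 58.0% for all windows, and the motif counts were not tested. A match describes the letters and is not evidence of a bound site.

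NQO1 and SRXN1, whose regions covered the 5′ end, had no match to any of the motifs in the 250 bases before their RefSeq start. The NQO1 region ran from -442 to 277 bp and the SRXN1 region from -292 to 433 bp. Their parts further upstream and past the start were not searched. The first TXNRD1 start had a match, TGACTTCGC, but no region lay next to it. The windows below are those with a match at a start next to which a region lay, which does not place the match inside the region. They are written on the gene strand, 5′ to 3′, ending at the base before the start, with the matches in capitals.
NFE2L2, first start (GRCh38.p14, chr2:177264728-177264977, minus strand): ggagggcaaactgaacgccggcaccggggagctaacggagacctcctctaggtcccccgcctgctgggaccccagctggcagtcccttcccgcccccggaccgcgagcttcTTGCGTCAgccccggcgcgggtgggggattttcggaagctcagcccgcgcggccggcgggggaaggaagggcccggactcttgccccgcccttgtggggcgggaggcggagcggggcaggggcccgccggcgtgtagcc
KEAP1, second start (GRCh38.p14, chr19:10502772-10503021, minus strand): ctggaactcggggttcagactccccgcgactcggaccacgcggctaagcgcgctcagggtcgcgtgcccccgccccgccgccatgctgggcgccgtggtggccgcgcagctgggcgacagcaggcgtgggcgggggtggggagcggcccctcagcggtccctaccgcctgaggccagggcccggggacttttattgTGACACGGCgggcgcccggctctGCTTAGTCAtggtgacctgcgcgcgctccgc
TXNRD1, second start (GRCh38.p14, chr12:104286782-104287031, plus strand): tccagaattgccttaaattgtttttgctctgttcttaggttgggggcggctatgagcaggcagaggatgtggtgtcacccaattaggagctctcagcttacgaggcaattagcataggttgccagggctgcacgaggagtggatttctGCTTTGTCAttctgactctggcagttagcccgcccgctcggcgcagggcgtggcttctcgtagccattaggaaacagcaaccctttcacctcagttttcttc
BACH1, first start (GRCh38.p14, chr21:29298672-29298921, plus strand): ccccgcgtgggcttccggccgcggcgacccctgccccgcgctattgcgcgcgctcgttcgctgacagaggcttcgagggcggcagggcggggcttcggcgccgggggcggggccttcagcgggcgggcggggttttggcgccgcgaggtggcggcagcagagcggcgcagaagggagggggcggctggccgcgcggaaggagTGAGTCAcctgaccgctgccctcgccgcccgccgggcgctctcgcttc
The NFE2L2 match is TGACGCAA on the opposite strand, 139 to 132 bases before the start. KEAP1 has TGACACGGC on the gene strand and TGACTAAGC on the opposite strand, TXNRD1 has TGACAAAGC on the opposite strand 102 to 94 bases before its second start, and BACH1 has TGAGTCA 48 to 42 bases before its first. The peaks are on hg19 and these windows on GRCh38.p14. No position was carried from one build to the other, and the match of a region to a window rests on the gene and on distances within each build. The KEAP1 matches lie 54 to 46 and 31 to 23 bases before a start 585 bases downstream of the first, and the KEAP1 region ended at 506 bp. The BACH1 region began at -29 bp. By these distances the KEAP1 and BACH1 matches fall outside the listed regions.

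NFE2L2, the gene of NRF2 itself, carried, over its 5′ end, the region of the 7 genes with the highest summit pileup and height in each library. The region lay on chromosome 2 from 178128227 to 178130332 (hg19), -473 to 1632 bp from the 5′ end, and its summits in the 4 libraries fell within 46 bp of each other. Summit pileups were 100 and 72 tags under cystine restriction and 75 and 89 tags in full medium. In height this was 77.1 and 66.4 times the genome background against 67.8 and 67.5 times. The 2 media overlapped, since cystine-restricted replicate 1 was above both full-medium libraries and replicate 2 below both. By −log10 p the peak stood at the 96.5 and 95.4 percentile of the cystine-restricted lists and the 95.6 and 97.0 percentile of the full-medium lists. The order differed on the deposited fold enrichment over local background, which was 8.88 and 8.60 under cystine restriction and 7.91 and 8.64 in full medium. The TXNRD1 region 70387 to 71513 bp from that gene's 5′ end exceeded it on that measure in 3 libraries, at 12.2, 12.4 and 9.03, and was lower in full-medium replicate 2, at 7.70. The TXNRD1 region at 3641 to 4560 bp exceeded it under cystine restriction, at 10.9 and 9.60, but not in full medium. So did the region 21719 to 22882 bp into NFE2L2, in cystine-restricted replicate 1 alone, at 10.2. No change in height was detected at the NFE2L2 5′ region in a limma fit over all 10331 regions with a peak in every library (log2 difference 0.08 ± 0.18 SE, adjusted p = 0.71, n = 2 each).

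This value stands beside all common regions, whose median log2 difference on the same scale was 0.53, with 43.2% called higher and 0.407% called lower under cystine restriction. The cause of that general shift was not tested. Centred on the median of each library, the NFE2L2 5′ region was lower under cystine restriction, by a log2 difference of -0.49 ± 0.15 (SE, limma adjusted p = 0.029), where 4.96% of common regions were called higher and 4.28% lower. Its direction thus turned with the scaling.

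Within NFE2L2, a second common region lay on chromosome 2 from 178106977 to 178108140, 21719 to 22882 bp into the gene. Its heights were 47.0 and 25.8 under cystine restriction and 26.2 and 16.7 in full medium. One library, cystine-restricted replicate 1, stood well above the other three, and the media overlapped. The limma fit called it higher under cystine restriction (log2 difference 0.74 ± 0.26 SE, adjusted p = 0.023). The call rested on single libraries, as the difference was 0.31 (adjusted p = 0.53) without cystine-restricted replicate 1 and 0.41 (adjusted p = 0.23) without full-medium replicate 2. Centred on the library medians it was 0.17 (adjusted p = 0.75), and on the deposited fold enrichment 0.50 (adjusted p = 0.23).

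The third common region of the NFE2L2 window lay downstream of the gene on chromosome 2 from 178076831 to 178078053, on the side of HNRNPA3, its neighbour in RefSeq, which encodes an RNA-binding protein. Whether this region lies at HNRNPA3 was not analysed here. Heights were 25.4 and 24.0 under cystine restriction and 22.6 and 26.6 in full medium, with the media overlapping. The log2 difference was 0.01 ± 0.25 (SE, limma adjusted p = 0.97), which ranked at the 8.4 percentile of common regions. Its direction turned with the scaling, to -0.56 ± 0.24 (adjusted p = 0.14) after centring on the library medians and -0.075 (adjusted p = 0.82) on the deposited fold enrichment, and it was not called on any of these scales. The summits were spread over 779 bp. A region 12211 to 13240 bp into NFE2L2 was listed in both cystine-restricted libraries, with heights of 25.4 and 23.1, and in full-medium replicate 2 with 12.9. The remaining 5 regions of the window were in 1 or 2 libraries, at heights from 10.1 to 14.5, and 2 of them paired cystine-restricted replicate 2 with full-medium replicate 1.

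At TXNRD1, the other gene with common regions, ATF3 peaks were higher in each cystine-restricted library than in each full-medium library. The first region lay inside the gene on chromosome 12 from 104613198 to 104614117, 3641 to 4560 bp from the 5′ end. Its summit pileups were 57 and 40 tags under cystine restriction, and 19 and 17 tags in full medium. In height these were 43.9 and 36.9 against 17.2 and 12.9, so that both cystine-restricted libraries were above both full-medium libraries. The ratio of the means, 40.4 ± 4.96 to 15.0 ± 3.02 (SD, n = 2 each), was 2.69. In the limma fit the log2 difference was 1.44 ± 0.25 (SE, adjusted p = 2.3e-05), at the 97.8 percentile of the common regions. In both full-medium libraries the signal was listed as 2 adjoining peaks and in the cystine-restricted libraries as 1, and the cystine-restricted summits lay at 4333 and 4332 bp. The full-medium heights were taken at the higher peak, at 4343 bp in replicate 1 and at 3982 bp in replicate 2. The other peak of full-medium replicate 2, at 4425 bp, had 16 tags. The comparison in replicate 2 is thus between summits at different positions.

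The second TXNRD1 region lay on chromosome 12 from 104679944 to 104681070, 70387 to 71513 bp from the 5′ end. RefSeq lists a second start of TXNRD1 that is 71253 bases downstream of the first in GRCh38.p14, and the window printed above is the one before it. EID3, another gene, overlaps TXNRD1 in RefSeq, and whether a region lies at it was not analysed here. All 4 summits fell within 25 bp, between 70806 and 70831 bp. By distances within each build, these summits lay upstream of the printed TXNRD1 window and of its match, which is 102 to 94 bases before the second start. Summit pileups were 60 and 46 tags under cystine restriction and 32 and 23 tags in full medium. Heights were 46.2 and 42.4 against 28.9 and 17.4, again with no overlap between the media, and the ratio of the means was 1.91. The log2 difference was 0.98 ± 0.24 (SE, limma adjusted p = 0.0012), at the 87.6 percentile. Without full-medium replicate 2, the lowest library, it was 0.61 (adjusted p = 0.041).

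The 2 TXNRD1 regions were thus both among the 3 of 5 common regions called higher, against 43.2% of all common regions, and they were the 2 of 5 in which the media did not overlap, against 72.8% of all common regions with both cystine-restricted libraries above both full-medium ones. After centring on the library medians, the first region was still called higher (0.87 ± 0.23 SE, limma adjusted p = 0.011), and the second did not pass (0.41 ± 0.21, adjusted p = 0.25). On the deposited fold enrichment, which divides by the local background, the difference was 0.70 at the first (adjusted p = 0.054) and 0.56 at the second (adjusted p = 0.038), with 4.93% of common regions called higher. The local background itself was larger under cystine restriction at the first region, at 4.32 and 3.27 tags against 1.65 and 2.43 tags. It is counted over the surrounding sequence and can hold tags of the peak itself. As to a test on TXNRD1 alone, 2 libraries against 2 allow 6 assignments, and no exact two-sided permutation p can fall below 0.33.

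**Figure D2:**
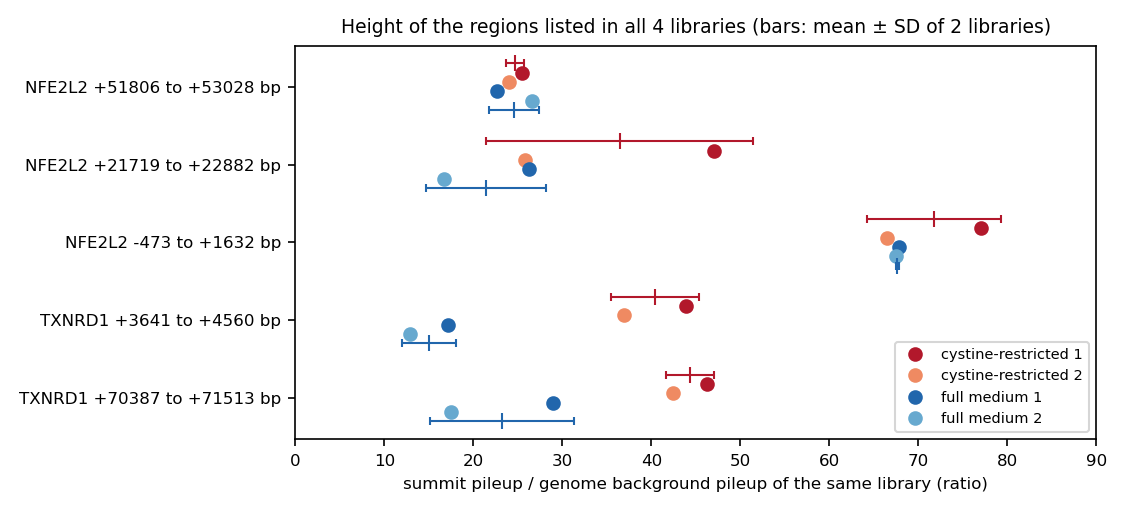
Height of the 5 regions with a peak in every library, as summit pileup over genome background (a ratio), with 1 point per library and bars for mean ± SD of 2 libraries. At both TXNRD1 regions the cystine-restricted points lie to the right of the full-medium points, and at the 3 regions of the NFE2L2 window the media overlap.

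**Figure D3:**
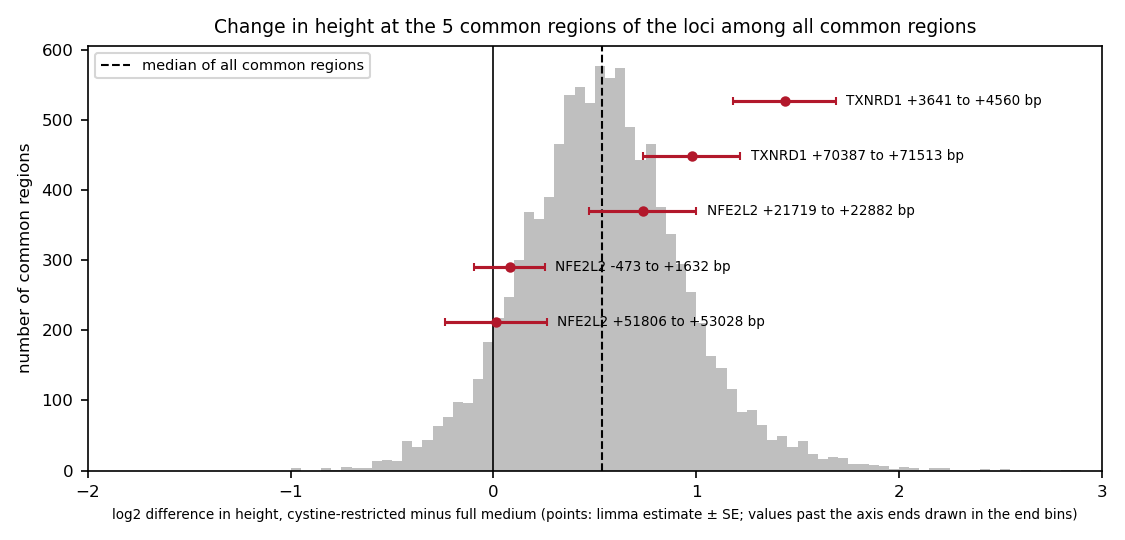
Log2 difference in height between the media for all 10331 common regions (grey, number of regions per bin), with the limma estimates ± SE of the 5 regions at NFE2L2 and TXNRD1 drawn over it at arbitrary heights. The median of all regions is 0.53, and the uncentred estimates run from 0.01 downstream of NFE2L2 to 1.44 at the first TXNRD1 region.

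HMOX1 encodes the enzyme that breaks down haem, and is known for distal upstream enhancers that hold clusters of stress response elements. ATF3 peaks were gained at 2 upstream regions of this gene. The more distant one lay on chromosome 22 from 35767578 to 35768275, -9482 to -8785 bp from the 5′ end. Its summits were at the same base, -9099 bp, in both cystine-restricted libraries, with pileups of 33 and 27 tags and heights of 25.4 and 24.9. The nearer one lay from 35772728 to 35773237, -4332 to -3823 bp, with pileups of 34 and 20 tags, heights of 26.2 and 18.4, and summits at -4030 and -4109 bp. Neither had a full-medium peak.

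A peak that is not listed has no measured height, so the height it would have needed was worked out. The local background was taken as the same multiple of the genome background as in the libraries with the peak, and the pileup was found whose p-value reaches the weakest p-value of the list. At the region around -9099 bp this was 12 tags in full-medium replicate 1 and 13 in replicate 2, or heights of 10.8 and 9.86. At the nearer region it was 14 and 16 tags, or heights of 12.7 and 12.1. The heights under cystine restriction were above these limits at both, by a wider margin at the distant region. A gained region has already passed such a limit in both cystine-restricted libraries, so being above it is no separate evidence of a change. The size of the margin was not tested. A narrow summit or a higher local background can leave a taller peak unlisted, so the limits are approximate.

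At the HMOX1 5′ end itself, a region from -48 to 170 bp was listed in cystine-restricted replicate 2 alone, with a pileup of 12 tags where 13 would have been needed in cystine-restricted replicate 1. A region at -16670 to -16302 bp and one at 18775 to 19056 bp, on the side of the neighbouring gene MCM5, a subunit of the replicative helicase, were listed in cystine-restricted replicate 1 alone, with 18 and 12 tags. Whether the region at 18775 to 19056 bp lies at MCM5 was not analysed here.

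The gained region of NQO1 covered its 5′ end, on chromosome 16 from 69760256 to 69760975, -442 to 277 bp. Pileups were 16 and 21 tags under cystine restriction, and heights 12.3 and 19.4. A listing in full medium would have needed heights of about 7.23 and 6.83. The other NQO1 region lay 19911 to 20552 bp from the 5′ end, beyond the gene on the side of NFAT5, which encodes an osmotic stress factor. It was listed in both full-medium libraries, at heights of 15.4 and 9.86, and in cystine-restricted replicate 1 at 12.3, with summits within 17 bp. NQO1 thus held a region with no full-medium peak at its start and one present in both media beyond its end.

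SRXN1 had 5 regions and none in full-medium replicate 1. The one over its 5′ end lay on chromosome 20 from 633581 to 634306, -292 to 433 bp, with heights of 20.8 and 18.4 under cystine restriction and 9.86 in full-medium replicate 2. The 2 cystine-restricted values were above the single full-medium value. No test is given for regions without a peak in 1 library, since the missing value was left out because no peak was listed and 1 medium holds a single value. In a limma fit over the 15565 regions with a peak in at least 3 libraries, 34.6% were called higher, a share to which the same limit applies. The log2 difference of the listed heights was 0.99 at the SRXN1 5′ end, 0.91 at the region 12211 bp into NFE2L2 and 0.002 beyond NQO1.

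Both other SRXN1 regions with 3 libraries lay upstream, on the side of its neighbour SCRT2, which encodes a zinc-finger repressor of neural cells. At -7868 to -7167 bp the heights were 13.1 and 12.9 against 8.34 in full-medium replicate 2 (log2 difference 0.64). At -18768 to -18380 bp they were 10.8 and 12.9 against 12.9 (log2 difference -0.13). For full-medium replicate 1, the needed heights were 8.13 at the 5′ end and 7.23 and 9.04 at the upstream regions. Over all merged regions, 2632 were in both cystine-restricted libraries and full-medium replicate 2 alone, and 1985 in both and full-medium replicate 1 alone. All 4 such regions at these genes were of the first kind. Keeping only peaks with a −log10 q of 5 or more, 3 of the 4 had no full-medium peak and counted as gained, the SRXN1 5′ region among them. The last 2 SRXN1 regions were each listed in 1 cystine-restricted library, at 12.3 and 6.46.

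KEAP1 and BACH1, which restrain the pathway in different ways, each had a gained region at the start of the gene. At KEAP1 it was the single region of the window, on chromosome 19 from 10613548 to 10613983, 71 to 506 bp from the 5′ end. Pileups were 8 and 11 tags under cystine restriction, or heights of 6.16 and 10.1. A listing would have needed 7 tags in each full-medium library, or heights of 6.33 and 5.31. The peak of cystine-restricted replicate 1 was at the limit of what the lists hold, so at this depth its absence from full medium does not show a lower height. With only peaks of a −log10 q of 5 or more, the KEAP1 region was listed in cystine-restricted replicate 2 alone and was not gained. The same held with each list cut to an equal number of top peaks. RefSeq lists a second KEAP1 start 585 bases downstream of the first, whose window with 2 matches of TGACNNNGC is printed above. By distances within each build, both matches lie beyond the end of the region.

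The BACH1 region lay on chromosome 21 from 30671087 to 30672034, -29 to 918 bp. Heights were 14.6 and 12.9 under cystine restriction at pileups of 19 and 14 tags, with needed heights of 8.13 and 7.59 in full medium. Cystine-restricted replicate 2 had 2 peaks in it, with summits at 114 and 568 bp, and replicate 1 had 1 with its summit at 520 bp. A second BACH1 region, 1012 to 1387 bp from the 5′ end, was in cystine-restricted replicate 2 alone, at 10.1. Over the 5 gained regions the heights under cystine restriction ran from 6.16 at KEAP1 to 26.2 at HMOX1, below the 66.4 and 77.1 at the NFE2L2 5′ end.

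**Figure D4:**
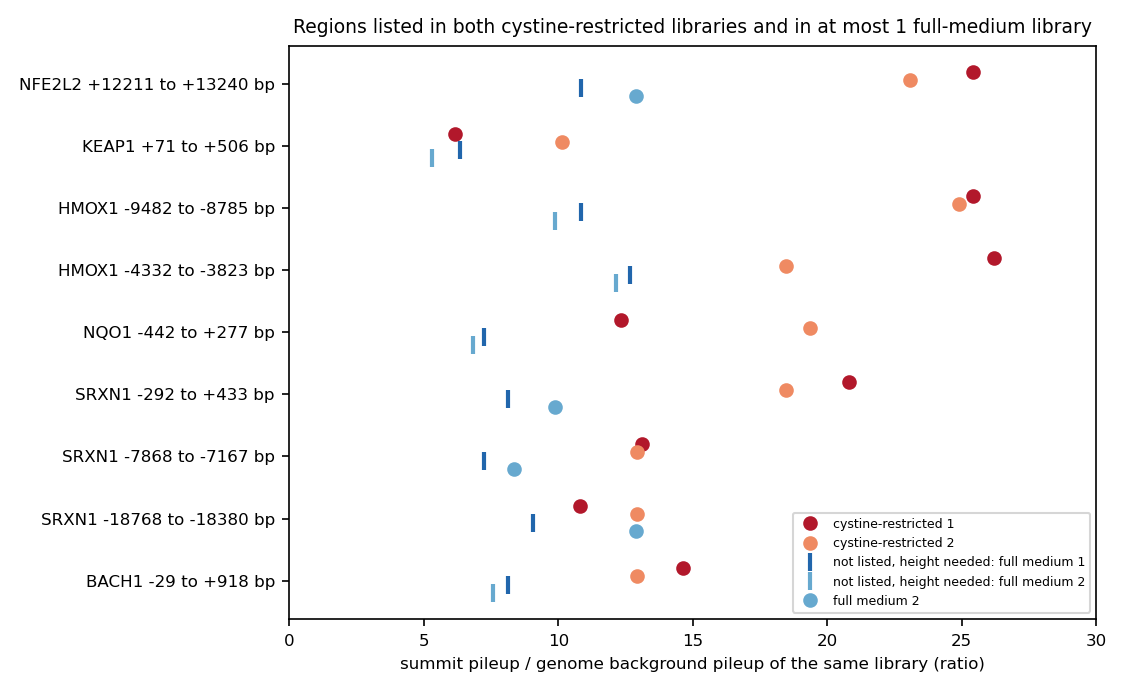
Heights (summit pileup over genome background, a ratio) at the 5 gained regions and the 4 regions that also had a peak in full-medium replicate 2, with dots for listed peaks and vertical ticks for the height an unlisted full-medium peak would have needed. The dots of HMOX1 at -9482 to -8785 bp lie at 24.9 and 25.4, far from ticks at 9.86 and 10.8, while at KEAP1 the lower dot, 6.16, lies between the ticks.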

How the data were processed

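ATF3 CUT&Tag peak lists of 4 SW480 libraries, 2 per medium, were used. The tools named in the submitters' processing notes are MACS2 2.2.7.1, BWA 0.7.17, fastp 0.19.7 and bcl2fastq 2.17, and the build named is hg19. Their options are not stated. The authors deposited, per peak, a fold enrichment (ratio of summit to local background pileup), a −log10 p, a −log10 q of at least 1.30, a whole-number score of about 10 times the −log10 q, and the summit position, called separately in each library. The fold and −log10 p of the deposited peaks together fix the summit pileup, and for 100% of the peaks of every list a whole number gave the −log10 p to within 0.1%. The lowest background of a list was taken as its genome background, which is proportional to its number of tags. With several peaks of a library in a region, the highest pileup was used. bedtools 2.31.1 gave the same 44826 regions.

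Heights were compared on the log2 scale with limma 3.58.1 (R 4.3.3, variance trend) and Benjamini-Hochberg adjustment over all 10331 common regions, with a threshold of 0.05. On simulated heights with 200 regions changed, the fit recovered 57.5% at a log2 change of 1, with 5 false calls, and 100% at 2, with 8. The simulation gave every region the same spread and held no general shift between the media. In the real heights 43.2% of common regions were called higher, so these rates cannot be carried over to them. Python 3.11.15, numpy 2.4.6, pandas 2.3.3, scipy 1.17.1 and matplotlib 3.10.9 were used. The genes, motifs and tests were chosen with earlier results of these data known, and the height needed for a listing was added after the peaks were seen. The text names the 7 genes with every region of their windows. Further NRF2 pathway genes were not analysed here, as no hg19 annotation was used. RefSeq (GRCh38.p14) gave strands, neighbours and promoter windows only. Depth limits weak peaks: no list holds a pileup under 6 tags.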

Additional observations from a re-analysis of the deposited data

How the results depend on the processing

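The regions at the 7 genes were counted under each alternative. Gained regions numbered 5 and lost ones 0. Gained regions were 2 with each list cut to an equal number of top peaks (HMOX1 at -9482 to -8785 bp and BACH1 at -29 to 918 bp), 3 with a reciprocal overlap of at least 50%, 3 in the gene spans alone, which leave out the regions upstream of HMOX1 by construction, and 5 to 10 with 1 library left out, where fewer libraries are required. Lost regions were 2 with reciprocal overlap, which separates overlapping peaks of unequal width, and 0 to 1 with 1 library left out. Both of these 2 were the narrower full-medium peaks of the first TXNRD1 region, which is listed in every library. The wider cystine-restricted peaks of that region, of 903 and 896 bp, then counted among the 3 gained, so the 3 are not a subset of the 5. Regions in every library were 9 with 50 kb on each side and 5 to 9 with 1 library left out. Within same-numbered libraries (replicate block), 13 regions were gained and 2 lost in pair 1 and 12 gained and 2 lost in pair 2, with 9 in both libraries of pair 2. The deviations of same-numbered libraries had a correlation of 0.012 over common regions, and 2 numbers do not pair the samples; the limma fit with the replicate block called the same number of regions, 3. Called higher were 1 after centring on library medians, 1 on the deposited fold enrichment, 5 of 10 with a peak in at least 3 libraries (for 2 of the 5, one full-medium library was missing for want of a listed peak, so these calls are no test), and 2 to 3 with 1 library left out, where the lone library of a medium is assumed to vary like the other pair; called lower were 0, and 1 after centring. The NFE2L2 5′ region went from 0.08 to -0.49 after centring and ranged from -0.026 to 0.19 with 1 library left out. The region downstream of NFE2L2 went from 0.01 to -0.56 after centring and -0.075 on the fold enrichment, and ranged from -0.11 to 0.13 with 1 library left out. Both TXNRD1 regions kept their direction in all 10 alternatives run and their call in 9, and the region 21719 bp into NFE2L2 kept its call in 5. Without the variance trend the latter had an adjusted p of 0.070 by limma. Where no cause is given, the cause was not tested.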
